A study of Homo sapiens with 6 samples.

Results

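Cell cycle and DNA replication genes were followed in SH-SY5Y cells, a human neuroblastoma line, after 1 h of exposure to free bilirubin. The set was a list of 59 gene symbols chosen by function, with earlier results of these data known. Of them 58 were read, out of 11963 genes that had a probe set with 1 symbol. Each gene was read from its probe set with the highest mean over the arrays. CDKN2C, an inhibitor of CDK4 and CDK6, was on no such probe set and is not analysed here. The measured members were 12 G1 regulators (cyclins D and E, CDK2, CDK4, CDK6, CDKN1B, E2F1, E2F3 and RB1), 19 replication genes and 27 mitotic genes.

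The study amplified and labelled total RNA and hybridized the cRNA to Affymetrix GeneChip human expression arrays. The 6 arrays were 3 of cells treated with Bf 140 nM, that is unconjugated bilirubin at a free, albumin-unbound concentration of 140 nM, and 3 of cells in DMSO 0.6%, the solvent that the Bf cells also received. Cells were in serum-containing medium, each treatment had flasks of its own, and the labels give the replicates as independent. Replicate numbers 1, 2 and 3 of the sample titles occur once in each treatment. One line was used, so the spread is that between cultures of a single cell line.

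A dividing cell passes from G1, where cyclin D with CDK4 or CDK6 and cyclin E with CDK2 phosphorylate the RB protein and free E2F factors, into S phase, where the MCM helicase, the PCNA clamp and the nucleotide-making enzymes copy the genome. Cyclin A and cyclin B with CDK1 then drive mitosis, and the spindle checkpoint holds back the anaphase-promoting complex until chromosomes are attached. Replication genes are known to peak around the start of S phase under E2F control, and mitotic genes in G2 and M through the CHR element bound by the MuvB complex with B-MYB and FOXM1. In a culture that is not synchronized, levels of the mitotic genes depend on how many cells are in G2 and M.

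The promoters are printed because the classes compared here are known for different elements. The genes printed were picked without a set rule and do not stand for their classes, whose shares are given below. RefSeq windows (GRCh38.p14, 250 bases before to 50 after each annotated start, 1 or more windows a gene) were found for 46 of the 58 measured members. Both strands were searched for CHR as TTTGAA, for the CCAAT box as CCAAT, and for E2F as TTTGGCGC, TTTCGCGC, TTTCCCGC or TTTGCCGC, and matches of one element may overlap those of another. The stretches below are the 100 bases before the annotated start of PLK1 at chr16:23678789-23678888 (plus strand), CDC20 at chr1:43358881-43358980 (plus strand), CCNB2 at chr15:59105046-59105145 (plus strand) and CENPA at chr2:26785956-26786055 (plus strand). Capitals mark every match in the stretch.
PLK1: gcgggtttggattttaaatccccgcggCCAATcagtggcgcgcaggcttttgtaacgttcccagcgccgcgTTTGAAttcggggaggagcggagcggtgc
CDC20: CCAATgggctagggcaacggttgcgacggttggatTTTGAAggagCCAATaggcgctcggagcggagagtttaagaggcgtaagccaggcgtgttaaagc
CCNB2: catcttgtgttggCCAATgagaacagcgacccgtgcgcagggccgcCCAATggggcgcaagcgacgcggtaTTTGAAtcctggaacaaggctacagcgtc
CENPA: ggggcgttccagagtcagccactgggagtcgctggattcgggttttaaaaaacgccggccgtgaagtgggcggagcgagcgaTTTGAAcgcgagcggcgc

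Each of these 4 mitotic promoters held TTTGAA, whose first base lay 29 bases before the start in PLK1 and in CCNB2, 65 in CDC20 and 18 in CENPA. PLK1 had 1 CCAAT box upstream of it, at 73 bases, and CCNB2 had 2, at 87 and 54 bases. CDC20 had 1 upstream, at 100 bases, and 1 downstream, at 55 bases, and CENPA had none in the stretch. The replication genes are shown as the same 100 bases of PCNA at chr20:5126623-5126722 (minus strand), CDT1 at chr16:88803689-88803788 (plus strand), TYMS at chr18:657553-657652 (plus strand) and MCM6 at chr2:135876444-135876543 (minus strand), with capitals again for every match.
PCNA: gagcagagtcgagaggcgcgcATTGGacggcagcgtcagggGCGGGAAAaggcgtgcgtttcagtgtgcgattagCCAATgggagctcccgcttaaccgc
CDT1: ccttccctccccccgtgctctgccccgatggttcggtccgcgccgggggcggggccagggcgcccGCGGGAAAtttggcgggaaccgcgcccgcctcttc
TYMS: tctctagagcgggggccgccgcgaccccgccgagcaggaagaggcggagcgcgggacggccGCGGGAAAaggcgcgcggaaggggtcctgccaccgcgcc
MCM6: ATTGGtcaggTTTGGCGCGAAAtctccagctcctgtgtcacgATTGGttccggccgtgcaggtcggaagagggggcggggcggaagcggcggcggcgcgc

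These 4 replication promoters held no TTTGAA in the printed stretch. In PCNA, CDT1 and TYMS the E2F match was GCGGGAAA, the other strand of TTTCCCGC, with its first base 59, 35 and 39 bases before the start. MCM6 had TTTGGCGC at 90 bases, overlapped by GCGCGAAA at 86 bases.

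Over the whole windows, an E2F match was present in 12 of 17 replication members (70.6%), in 2 of 21 mitotic members (9.52%) and in 2 of 8 G1 regulators, beside 3.99% of 27305 genes. CHR was in 13 of 21 mitotic members (61.9%) and 1 of 17 replication members (5.88%), beside 18.2% of all genes. The CCAAT box was in 19 of 21 mitotic and 10 of 17 replication members, beside 39.7% of all genes. In genes of the pathway outside the 59, CHR was in 32 of 43 mitotic genes (74.4%) and 4 of 38 replication genes (10.5%). E2F was in 5 of those mitotic genes (11.6%) and 13 of those replication genes (34.2%), a smaller gap than in the members. A match is a run of letters and not a shown binding site. Genes with more windows have more chances of a match, at 1.47 windows a gene for replication members, 1.14 for mitotic members and 1.29 for all genes.

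Most of these genes gave strong signals in SH-SY5Y cells. Mean log2 values of the replication members lay between 8.72 (CDT1, a licensing factor) and 13.2 (TYMS, thymidylate synthase), which are the 63.8th and 98.7th percentiles of the 22215 probe sets. Those of the mitotic members lay between 9.26 (CCNF, cyclin F) and 12.7 (PTTG1, securin), the 72.0th and 97.9th percentiles. G1 regulators spanned more, with CCND2 (cyclin D2) at 6.32, the 9.49th percentile, and CDK4 at 12.4, the 97.1st. Probe sets differ in how well they bind, so these values do not order the genes by transcript number. The log base was taken as 2 from the normalization method and the span of the values, and folds rest on it.

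As to identity and quality, 7 of the 9 noradrenergic neuroblastoma markers found were above the 75th percentile, while TH and HAND2 were at the 13.9th and 49.6th, and none of 5 blood or 4 epithelial markers was above the median. Of 8 mesenchymal markers 7 were above the median. The replicate 3 arrays stood apart in the control probe sets for RNA integrity. The 3′ minus 5′ difference of actin was 0.12, 0.50 and 1.49 in Bf replicates 1, 2 and 3, against 0.10, 0.37 and 1.90 in DMSO replicates. That of GAPDH was 0.21, 0.25 and 1.03 in Bf, against 0.20, 0.21 and 1.15 in DMSO. A bacterial control RNA added to the samples, BioC, also differed, at 8.12, 9.32 and 9.73 in Bf and 8.17, 9.01 and 9.84 in DMSO. Each of these differences lies between replicate numbers and is present in both treatments. Fewer cells of a phase and less RNA per cell cannot be told apart in such bulk samples.

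The first question was whether 1 h of bilirubin changed these genes. No member passed for Bf 140 nM minus DMSO 0.6% at an adjusted p under 0.10 in limma, where 0 of 11963 genes (0%) passed, and no member had an unadjusted p under 0.05, against 7 of all genes. Differences lay between -0.19 and 0.21 on the log2 scale, with 28 of 58 positive. The median was -0.02 for replication members, -0.01 for mitotic members and 0.01 for G1 regulators, beside 0.01 for all genes. The Bf and DMSO arrays overlapped in all 58 members, beside 1.81% of all genes wholly above and 0.577% wholly below in Bf. At shares that small, overlap in all 58 does not set the members apart from other genes.

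The members nearest to a difference were small in both directions. CDK6, a G1 kinase partner of cyclin D, was 9.28, 8.92 and 8.50 in Bf replicates 1, 2 and 3, against 8.99, 8.86 and 8.22 in DMSO replicates. Bf was above DMSO in each of the 3 replicate numbers, by 0.29, 0.06 and 0.28, but the spread between replicate numbers was wider than that gap. The mean difference was 0.21 (95% interval -0.45 to 0.87, limma adjusted p = 1.00). BIRC5, survivin of the chromosomal passenger complex, was 12.03, 11.40 and 11.42 in Bf, against 12.26, 11.67 and 11.50 in DMSO. On this brightest probe set it was below DMSO in each replicate number, with a mean difference of -0.19 (95% interval -0.82 to 0.43, limma adjusted p = 1.00). The other BIRC5 probe sets gave -0.08 and 0.07, so the direction did not hold across them.

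Blocking on replicate number in limma, the intervals narrowed and no member passed either. The median half-width of the 95% interval over the members was 0.19 with the block and 0.59 without it. CDK6 (0.02 to 0.40) and BIRC5 (-0.38 to -0.01, on its brightest probe set) were then the only members with an unadjusted p under 0.05. Their unadjusted p in limma was 0.0320 and 0.0429, and both had an adjusted p of 1.00. Of all genes, 0.627% were higher and 0.201% lower in Bf at that unadjusted threshold. The intervals bounded what the arrays could have missed. Without the block, the interval lay within a 1.5-fold change either way for 25 of 58 members and within 2-fold for 53. With the block it lay within 1.5-fold for all 58. Of all 11963 genes, 9770 lay within 1.5-fold and 11614 within 2-fold without the block, and 11953 within 1.5-fold with it. Members were thus less often bounded than all genes without the block.

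**Figure D1:**
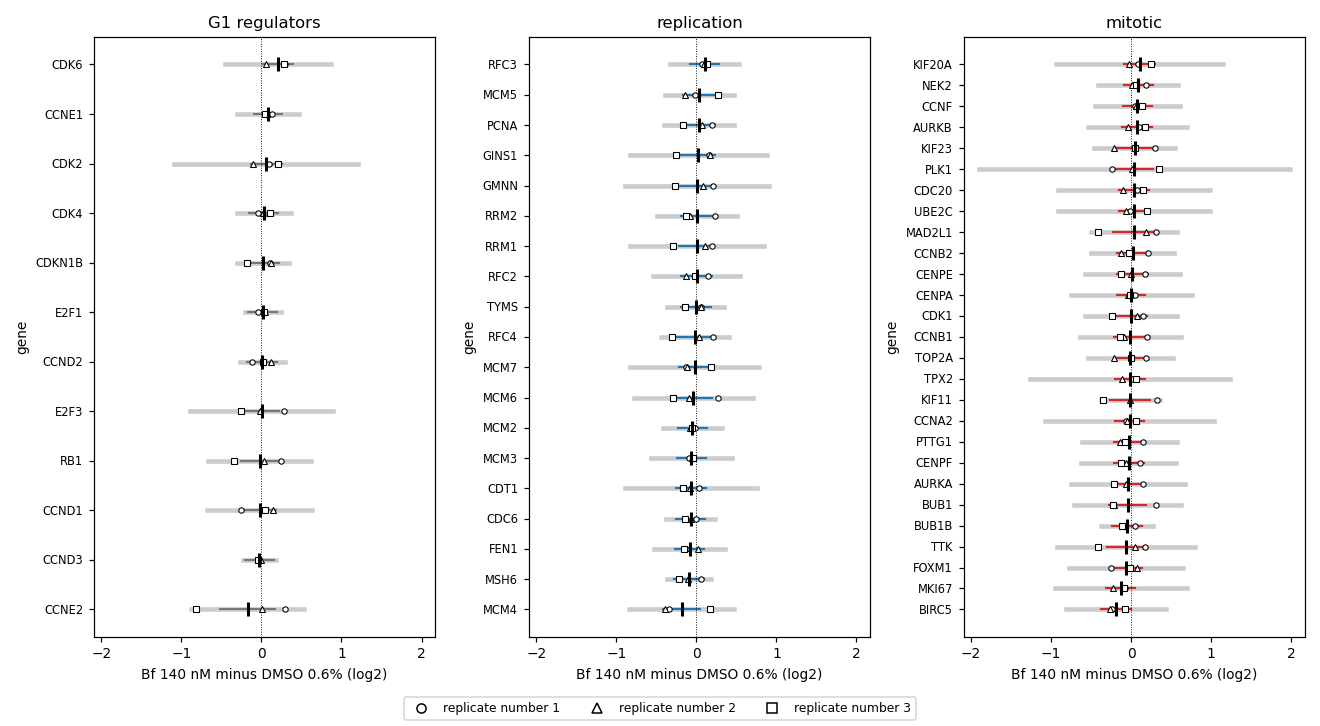
Bf 140 nM minus DMSO 0.6% on the log2 scale for each member, by class. Vertical ticks are means of 3 arrays against 3, wide grey bars the 95% limma intervals, narrow coloured bars those with the replicate block, and open circles, triangles and squares the differences of replicate numbers 1, 2 and 3. Every grey bar crosses 0, and the means lie between -0.19 and 0.21.

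Genes of the G1 transition stayed close to their solvent values. CCND1, cyclin D1, was 11.90, 12.25 and 11.46 in Bf replicates 1, 2 and 3, against 12.15, 12.11 and 11.42 in DMSO, and CDK4 was 12.49, 12.43 and 12.22 in Bf, against 12.53, 12.42 and 12.12 in DMSO. Both were lowest in replicate 3 and overlapped between treatments. The dimmer CCND1 probe set was instead highest in replicate 3, at 11.32 in Bf and 11.33 in DMSO. CCND1 averaged 11.87 ± 0.39 in Bf and 11.89 ± 0.41 in DMSO (SD, n = 3 each), and CDK4 averaged 12.38 ± 0.14 in Bf and 12.36 ± 0.21 in DMSO. CDKN1B, the p27 inhibitor of CDK2, was 10.89, 10.90 and 11.00 in Bf, against 10.78, 10.78 and 11.18 in DMSO. It averaged 10.93 ± 0.06 in Bf and 10.91 ± 0.23 in DMSO. RB1, the pocket protein, was 10.15, 10.33 and 10.57 in Bf, against 9.90, 10.29 and 10.92 in DMSO, highest in replicate 3 of both treatments and with a difference of -0.02. E2F1, the factor it holds, was 9.29, 9.35 and 9.48 in Bf, against 9.33, 9.30 and 9.44 in DMSO, a difference of 0.01 within a narrow spread. CCNE2, cyclin E2, had the widest single gap of any member, with 9.52, 9.95 and 9.51 in Bf replicates 1, 2 and 3, against 9.23, 9.95 and 10.32 in DMSO. Its difference was 0.29 in replicate number 1 and -0.82 in replicate number 3, so the mean of -0.17 did not hold in direction across the numbers. The dimmer CCNE2 probe set lacked that gap, at 7.73 in Bf and 7.69 in DMSO in replicate 3, with a mean difference of 0.02. CCNE1, cyclin E1, was 9.53, 9.59 and 9.90 in Bf, against 9.40, 9.52 and 9.85 in DMSO. Its Bf values exceeded their DMSO partners by 0.13, 0.07 and 0.05 in the 3 numbers, for a mean of 0.08.

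Replication genes likewise showed no shift that passed. MCM2, a helicase subunit, was 12.29, 12.02 and 11.87 in Bf, against 12.31, 12.09 and 11.92 in DMSO. PCNA averaged 13.06 ± 0.14 in Bf and 13.02 ± 0.32 in DMSO, and RRM2, the regulated subunit of ribonucleotide reductase, 13.18 ± 0.25 in Bf and 13.17 ± 0.34 in DMSO. RFC3, of the clamp loader, was 11.36, 11.32 and 11.80 in Bf, against 11.29, 11.22 and 11.66 in DMSO. Its difference of 0.10 was positive in all 3 numbers, with an unadjusted p of 0.584 in limma, the smallest among positive replication members. On the negative side MSH6, a mismatch repair protein, was 11.83, 11.88 and 11.59 in Bf, against 11.77, 11.99 and 11.82 in DMSO, a difference of -0.09. MCM4, another helicase subunit with a difference of -0.18, was 10.76, 10.13 and 10.35 in Bf, against 11.09, 10.52 and 10.17 in DMSO. It was lower in Bf in replicate numbers 1 and 2 and higher in number 3, and without both replicate 3 arrays its difference was -0.36 with no member called.

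Among mitotic genes, the kinase NEK2 was 11.15, 10.57 and 10.57 in Bf replicates 1, 2 and 3, against 10.97, 10.56 and 10.51 in DMSO. Its difference was 0.09 and was positive in all 3 numbers. CCNB1, cyclin B1, averaged 11.90 ± 0.45 in Bf and 11.90 ± 0.31 in DMSO, and its kinase CDK1 12.38 ± 0.23 in Bf and 12.39 ± 0.43 in DMSO. TOP2A, the topoisomerase of chromosome decatenation, was 12.25, 11.69 and 12.40 in Bf, against 12.07, 11.91 and 12.40 in DMSO, and differed by -0.01. FOXM1, the mitotic transcription factor, was 11.19, 11.09 and 10.48 in Bf, against 11.45, 11.02 and 10.49 in DMSO, and differed by -0.07, with replicate 3 lowest in both treatments. MKI67, which coats mitotic chromosomes and gives the Ki-67 antigen, was 10.73, 10.34 and 9.73 in Bf, against 10.80, 10.57 and 9.82 in DMSO. Its difference was -0.13, negative in each number, with an unadjusted p of 0.717 in limma. The other MKI67 probe sets gave -0.09, 0.10 and -0.11. PLK1, polo-like kinase, had a difference of 0.04 with an interval of -1.90 to 1.98, the widest of the members. Its arrays ran over more than 2 log2 units within each treatment, with the replicate 1 array highest in both.

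By replicate number, the Bf minus DMSO medians of replication members were 0.06, -0.06 and -0.14 for numbers 1, 2 and 3. Those of mitotic members were 0.11, -0.07 and -0.03, and those of G1 regulators 0.10, 0.04 and 0.03. The sign of the replication and of the mitotic median was thus positive in number 1 and negative in numbers 2 and 3. The medians of all genes were 0.03, -0.01 and 0.02 for numbers 1, 2 and 3. In all 3 numbers 5 of 58 members were positive and 6 negative, beside 1330 positive and 618 negative of 11963 genes.

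Outside the 59 symbols, 112 of 119 further genes of the pathway were read, and 0 passed in limma. Their median difference was -0.01. CDKN2B (an inhibitor of CDK4 and CDK6) and HMGB2 (a chromatin protein of dividing cells) had the smallest p among positive ones, each with a log2 difference of 0.09. CHEK1 (the replication checkpoint kinase) and CDC7 (the kinase that fires origins) had the smallest p among negative ones, with log2 differences of -0.13 and -0.21. CDC7 was 9.74, 9.74 and 9.82 in Bf, against 9.66, 9.77 and 10.49 in DMSO, so that its difference lay mainly in the DMSO replicate 3 array.

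The second question was how replicate numbers differ, and here mitotic and replication genes had different patterns. In limma with treatment as a further term, 52 of 58 members differed between replicate numbers by the F test at an adjusted p under 0.10, 8 of 12 G1 regulators, 18 of 19 replication and 26 of 27 mitotic members, beside 44.2% of all genes. E2F1, CCND2, CCND3, CDKN1B, MSH6 and KIF11, a spindle motor, did not pass. Each number holds 1 array of each treatment, so the test is set against uneven Bf and DMSO differences, not against replicate cultures of a number. The deviation of each array from the gene means gives the pattern by class. The mitotic median was 0.41, -0.19 and -0.17 in Bf replicates 1, 2 and 3, against 0.27, -0.17 and -0.21 in DMSO. The replication median was 0.02, -0.09 and 0.15 in Bf, against -0.12, -0.11 and 0.22 in DMSO. Replication minus mitotic was thus -0.39, 0.10 and 0.32 in Bf, against -0.39, 0.06 and 0.43 in DMSO. Replicate 1 stood high in mitotic genes in both treatments.

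**Figure D2:**
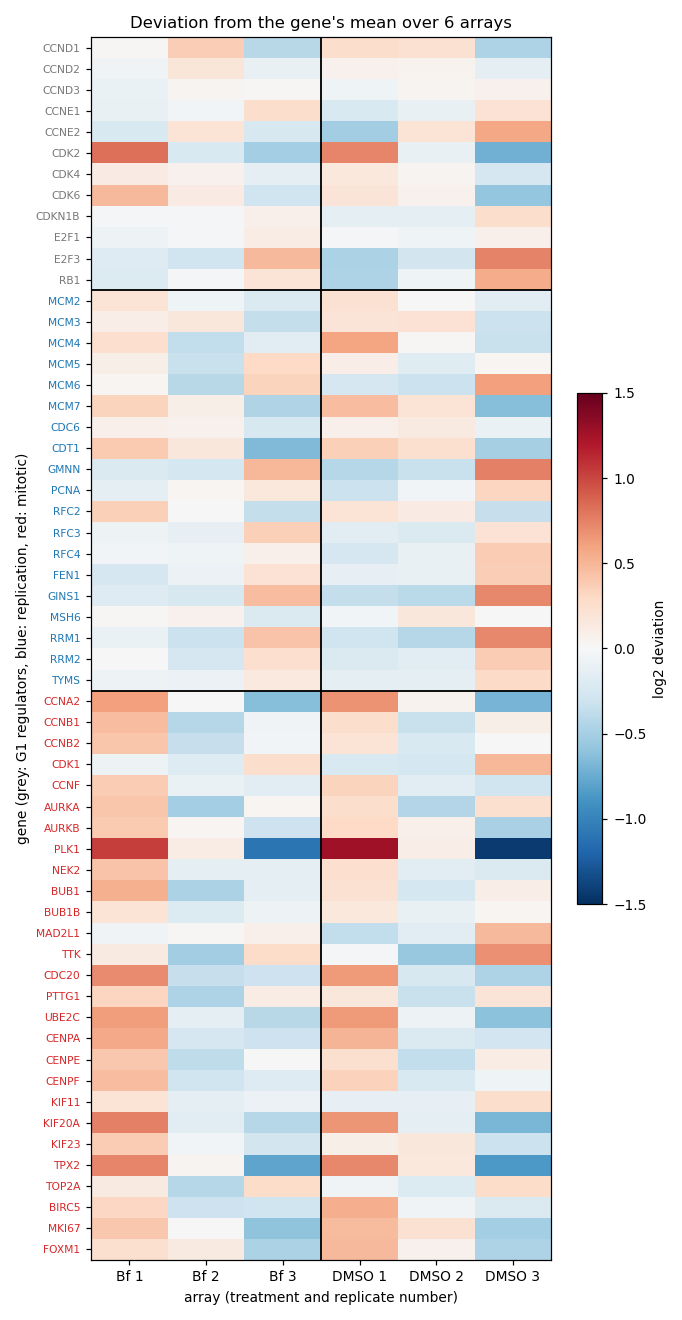
Deviation of each array from the gene's mean over the 6 arrays, on the log2 scale, for the 58 measured members in rows and the arrays in columns, with Bf replicates 1 to 3 left of DMSO replicates 1 to 3. Most mitotic rows are red in replicate 1 of both treatments, whose class medians are 0.41 and 0.27, and replication rows show no such pattern.

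Replicate 2 minus replicate 1 was the comparison with the smallest gap in the actin control, but BioC differed more between replicates 1 and 2 than between 2 and 3, as given above, and its part in the result was not tested. Of the 27 mitotic members 18 were lower in replicate 2, with 1 of 19 replication members (MCM4) and 1 of 12 G1 regulators (CDK2), and no member was higher. Over all genes 3.59% were lower and 1.3% higher. The median difference was -0.61 for mitotic members, -0.05 for replication members and 0.07 for G1 regulators, beside -0.02 for all genes. The 9 mitotic members that did not pass were CDK1, AURKB, BUB1B, MAD2L1, KIF11, KIF23, TOP2A, MKI67 and FOXM1, and 8 of them had negative differences as well. The exception was MAD2L1, a checkpoint protein, at 0.14.

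The count rested partly on 1 array. Without the Bf replicate 2 array 9 mitotic members passed, TPX2 and CCNA2 not among them, and without both replicate 3 arrays 23 did. In that last fit all genes shared one estimate of the spread. There CCNE2 (0.57, limma adjusted p = 3.1e-06) and RB1 (0.28, adjusted p = 0.0656) also passed as higher in replicate 2, each on its brightest probe set. Their other probe sets did not follow. In the fit of all 6 arrays that of RB1 was lower, at -0.54 (limma adjusted p = 0.0385), and that of CCNE2 gave -0.02. In the Bf arrays alone, 26 of 27 mitotic members were below replicate 1 in replicate 2, with a median of -0.66. In the DMSO arrays alone, 25 of 27 were, with a median of -0.50. Of the 19 replication members 15 in Bf and 11 in DMSO were below, with medians of -0.05 in Bf and -0.05 in DMSO. Of all genes, 57.1% in Bf and 52.2% in DMSO were below.

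PLK1, which triggers centrosome maturation and mitotic entry, was 10.71, 9.78 and 8.57 in Bf replicates 1, 2 and 3, against 10.94, 9.76 and 8.23 in DMSO. Both replicate 2 arrays lay below both replicate 1 arrays, and both replicate 3 arrays lay lower still. In limma, replicate 2 minus replicate 1 was -1.05 (95% interval -1.33 to -0.77, adjusted p = 0.00157), which makes replicate 1 2.07-fold higher. CDC20, an activator of the anaphase-promoting complex, was 11.58, 10.52 and 10.55 in Bf, against 11.50, 10.62 and 10.40 in DMSO. Here replicate 1 was the high one and the other 4 arrays were close together. The limma difference was -0.97 (95% interval -1.20 to -0.74, adjusted p = 0.000844).

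The ubiquitin conjugating enzyme of the same complex, UBE2C, was 12.53, 11.76 and 11.49 in Bf, against 12.55, 11.83 and 11.29 in DMSO. PTTG1, the securin that the complex destroys, differed by -0.65. So all 3 members of the anaphase group passed as lower in replicate 2, with a median of -0.74. CCNB1 was 12.37, 11.47 and 11.85 in Bf, against 12.16, 11.56 and 11.99 in DMSO, and was lowest in replicate 2 in both treatments. CCNA2, cyclin A2, was 11.04, 10.41 and 9.78 in Bf, against 11.10, 10.47 and 9.72 in DMSO. CCNB2 and CCNF also passed as lower, and CDK1, read from its brightest probe set, was 12.30, 12.19 and 12.64 in Bf, against 12.16, 12.12 and 12.88 in DMSO. On their brightest probe sets CCNA2, CCNB1, CCNB2 and CCNF were thus lower in replicate 2 than in replicate 1. CDK1, with a difference of -0.08 (95% interval -0.33 to 0.17), did not pass, and its 2 dimmer probe sets gave -0.41 and -0.34. The other CCNA2 probe set, with a mean of 10.40 beside 10.42, gave -0.15 and did not pass (limma adjusted p = 0.703).

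Among kinases of mitosis, AURKA, of the spindle poles, differed by -0.82 and NEK2, of centrosome separation, by -0.50, while AURKB, of the chromosomal passenger complex, had -0.29 and did not pass. The 3 centromere members CENPA, CENPE and CENPF, a histone variant, a motor and a large kinetochore protein, all passed, at -0.77, -0.70 and -0.67. The group of spindle motors and TPX2 was split. KIF20A, which acts in cytokinesis, was 11.10, 10.18 and 9.92 in Bf, against 11.01, 10.20 and 9.66 in DMSO, and TPX2, the AURKA activator at the spindle, was 11.90, 11.20 and 10.37 in Bf, against 11.89, 11.32 and 10.31 in DMSO. KIF20A and TPX2 passed at -0.87 and -0.64, whereas KIF11 and KIF23 had -0.17 each. In the spindle checkpoint BUB1 (-0.75) and TTK (-0.60) passed and BUB1B (-0.33) did not.

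CDK2 was the exception among G1 regulators when each gene was read from its brightest probe set. It was 10.56, 9.50 and 9.21 in Bf, against 10.46, 9.61 and 9.01 in DMSO. Both replicate 1 arrays stood above the other 4, and the limma difference was -0.95 (95% interval -1.19 to -0.71, adjusted p = 0.00108). Of its other probe sets 1 gave -0.90 and 1 gave 0.02. CDK2 partners cyclin A as well as cyclin E. CDK4, CDK6 and CCND1 had -0.09, -0.24 and 0.16 and did not pass. Dimmer probe sets of E2F3 (-0.47, limma adjusted p = 0.0334) and RB1 (-0.54, adjusted p = 0.0385) also passed as lower, while their brightest gave 0.04 and 0.28.

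Replication genes by role gave medians near 0 for replicate 2 minus replicate 1: 0.00 for the clamp and clamp loader, 0.02 for licensing, 0.08 for fork and repair genes and -0.11 for nucleotide synthesis. The median of the 6 MCM helicase subunits was -0.25, and MCM4 alone passed (-0.60, limma adjusted p = 0.0338), a call lost when its probe sets were averaged or the Bf replicate 2 array was left out. PCNA was 12.91, 13.07 and 13.19 in Bf, against 12.71, 12.99 and 13.36 in DMSO, a difference of 0.22 that did not pass. RRM2 was 13.18, 12.92 and 13.43 in Bf, against 12.95, 13.00 and 13.55 in DMSO, with replicate 2 below replicate 1 in Bf and above it in DMSO.

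**Figure D3:**
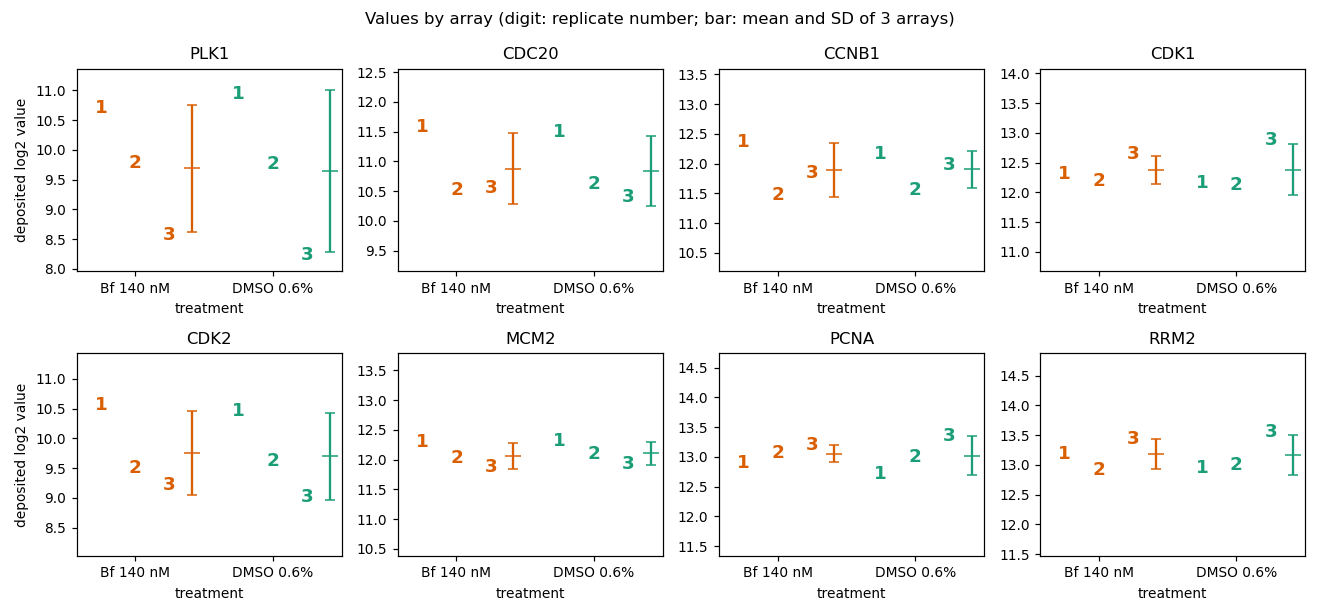
Deposited log2 values of 8 members by array, with Bf 140 nM left of DMSO 0.6%. Digits give the replicate number and bars the mean and SD of 3 arrays; every panel spans the same number of log2 units. PLK1, CDC20, CCNB1 and CDK2 are high in replicate 1 of both treatments (PLK1 at 10.71 and 10.94). MCM2, PCNA and RRM2 vary less than PLK1, CDC20 and CDK2.

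Among 49 other mitotic genes of the pathway 21 were lower in replicate 2, none was higher and 28 did not pass, with a median of -0.30, and 47 of the 49 had negative differences. The centromere gene CENPI, at 9.16, 8.19 and 8.21 in Bf against 8.99, 8.26 and 8.22 in DMSO, had the lowest difference, -0.85. Among 42 other replication genes 2 were lower (POLD2, of polymerase delta, and ORC1, of the origin recognition complex) and 1 was higher, with a median of -0.06. The higher one was RFC5, of the clamp loader, at 0.99. Among 21 other G1 regulators only TFDP2, an E2F partner, was lower, and their median was -0.11. The counts describe the classes, and no test of the difference between classes was made. These lists too were chosen with earlier results of these data known, so they are no independent check on the members.

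**Figure D4:**
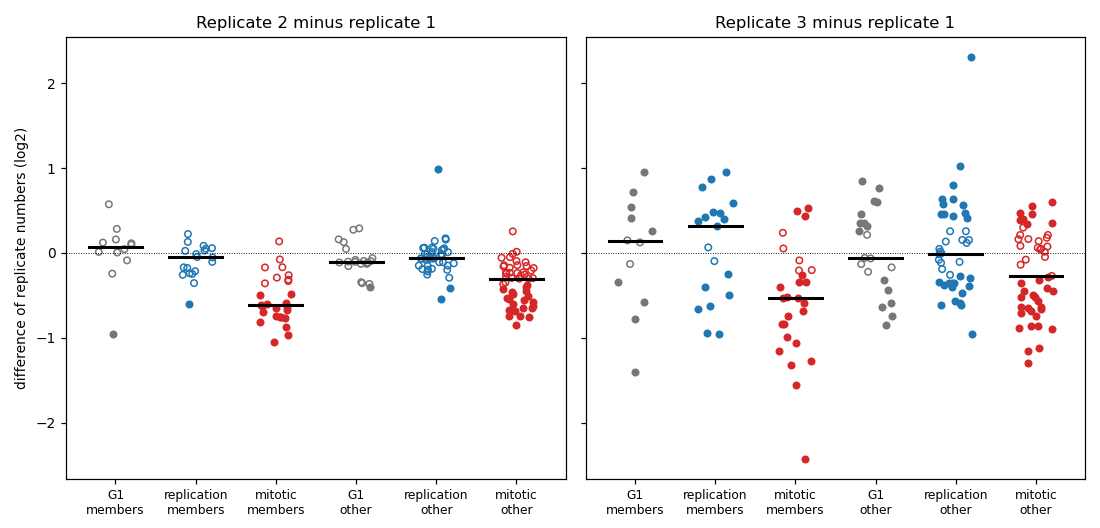
Differences between replicate numbers on the log2 scale for the 58 members and the 112 other genes of the pathway, by class, for replicate 2 minus replicate 1 on the left and replicate 3 minus replicate 1 on the right. Filled points passed in limma at an adjusted p under 0.10, open points did not, and bars are medians. On the left the mitotic medians are -0.61 and -0.30 and those of replication genes -0.05 and -0.06, and on the right every class spreads to both sides.

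Lower values in replicate 2 were not more frequent among mitotic members with CHR, a description with no test. Among mitotic members with a promoter window, 6 of 13 with TTTGAA and 7 of 8 without it passed as lower in replicate 2, with medians of -0.36 and -0.67. PLK1, CDC20, CCNB2 and CENPA, whose promoters are printed above, were among the 6 with TTTGAA that passed. They were picked without a set rule. None of the 12 replication members with an E2F match was lower (median -0.03), and none of the 5 without it (median -0.11).

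Markers of cell state other than division also differed between replicates 1 and 2. The noradrenergic genes CHGA, CHGB and DBH were lower in replicate 2, with differences of -0.62, -0.62 and -0.47, and 5 of the other 6 noradrenergic markers had differences between -0.13 and 0.15. Of the mesenchymal markers COL3A1 was lower at -0.58, and ACTA2 and DCN were higher at 0.63 and 0.44. Their part in the mitotic difference was not tested. Culture, day and array handling cannot be told apart within a replicate number.

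Replicate 3 gave larger and less uniform differences. Against replicate 1, 19 mitotic members were lower and 3 higher (TTK, CDK1 and MAD2L1), 7 replication members were lower and 10 higher, and 4 G1 regulators were lower and 5 higher. Of all genes 23.9% were lower and 17.6% higher. The median was -0.53 for mitotic and 0.32 for replication members. Against replicate 2, 9 mitotic members were lower and 10 higher, 5 replication members were lower and 10 higher, and 5 G1 regulators were lower and 3 higher, beside 20.8% lower and 18.9% higher of all genes. The split of all genes that passed in replicate 3 minus replicate 1 was 57.5% lower as deposited, 41.4% after quantile normalization and 23.6% with equal array medians, and for replicate 2 minus replicate 1 it was 73.5%, 50.5% and 69.8%. Equal medians moved the median of all genes in replicate 3 minus replicate 1 to 0.16, beside -0.05 as deposited.

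PLK1 had the lowest value, at -2.42, followed by TPX2 at -1.56 and CDK2 at -1.40, and all 3 were lower in replicate 3 than in replicate 2 as well. Of the helicase, MCM2, MCM3, MCM4 and MCM7 were lower in replicate 3 than in replicate 1 and MCM6 was higher. CDT1, at 9.11, 8.88 and 8.06 in Bf against 9.08, 8.96 and 8.22 in DMSO, was lower, and GMNN, its inhibitor geminin, at 11.75, 11.71 and 12.46 in Bf against 11.53, 11.63 and 12.72 in DMSO, was higher. RRM1, RRM2, TYMS, PCNA, FEN1, GINS1, RFC3 and RFC4 were higher on their brightest probe sets. The other probe sets of RRM1, RFC3, FEN1 and TYMS were lower, at -1.48, -1.54, -0.81 and -0.70, and that of RRM2 was higher, at 0.79. The brightest probe sets of replication genes thus moved apart within the same arrays in which the actin 3′ minus 5′ difference was highest.

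Probe sets of 1 gene disagreed in replicate 3. Of 28 members with several probe sets, 15 had differences of opposite sign in replicate 3 minus replicate 1. They were 5 of 10 mitotic, 5 of 11 replication and 5 of 7 G1 genes. In replicate 2 minus replicate 1 there were 9, namely 1 of 10 mitotic, 4 of 11 replication and 4 of 7 G1 genes. In replicate 3 minus replicate 1, RRM1 had 0.77 for the brightest and -1.48 for the other. RFC3 had 0.40 and -1.54, and RB1 had 0.72 and -1.41. TOP2A had 0.24 and -0.76, and CDK1 had 0.53 beside -0.51 and -0.60. When the probe sets of each gene were averaged, 6 replication members in place of 10 were higher in replicate 3 than in replicate 1. In replicate 2 minus replicate 1, by contrast, only BUB1 of the 10 such mitotic members had probe sets of both signs, and its 2 brightest gave -0.75 and -0.87. Bf minus DMSO had opposite signs among probe sets in 13 of the 28 members, at differences near 0. How far RNA integrity sets the replicate 3 differences was not tested.

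**Figure D5:**
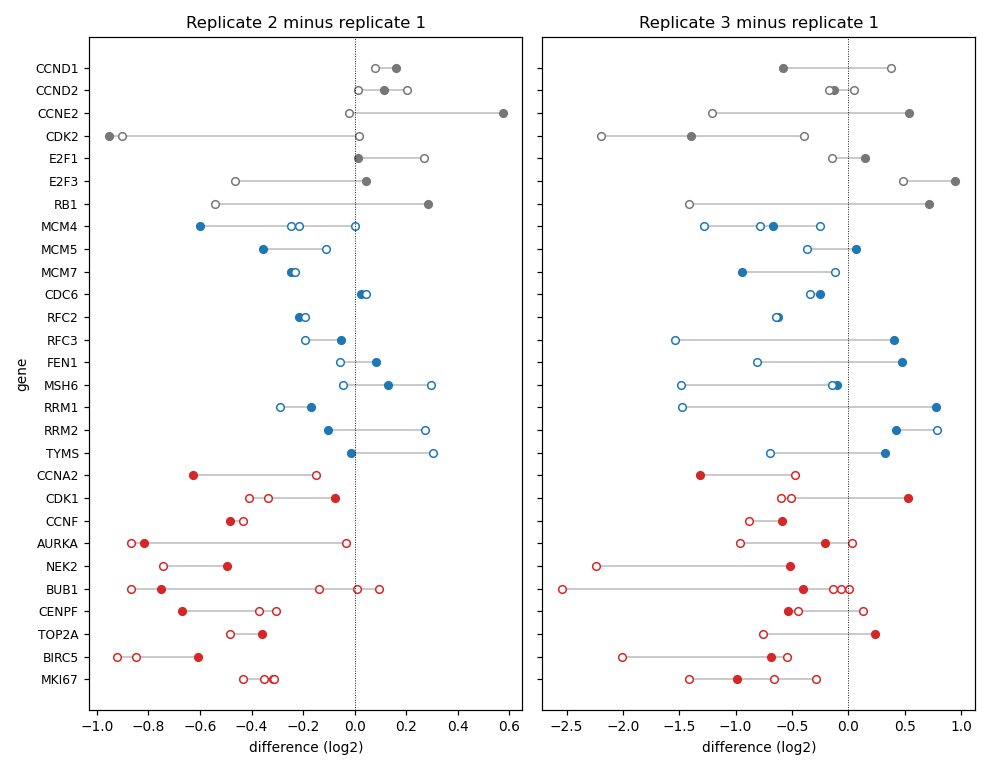
Differences between replicate numbers for every probe set of the 28 members that have several, on the log2 scale, with the brightest probe set filled. Colours are grey for G1 regulators, blue for replication and red for mitotic genes. Mitotic probe sets lie at or left of 0 in replicate 2 minus replicate 1, apart from 2 dim BUB1 probe sets at 0.09 and 0.01, while in replicate 3 minus replicate 1 probe sets of 1 gene reach from below -1 to above 0, such as -1.48 and 0.77 for RRM1.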

How the data were processed

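Total RNA of 6 cultures was amplified and labelled, and the cRNA was hybridized to Affymetrix GeneChip arrays. Cell intensities came from the GCOS software; the authors applied variance-stabilizing normalization (VSN; R 2.5.0 per the submitters' processing notes) and deposited the result, here read as log2 values for each array. The sources used here do not give the log base, the probe summary or the set of arrays that shared a normalization. Detection calls were not used here. Precision is limited by 3 arrays a group.

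Of 22277 probe sets, 62 controls were left out, and 22215 were tested with limma 3.58.1 in R 4.3.3 (lmFit, eBayes, Benjamini-Hochberg over all probe sets, adjusted p under 0.10). No filter was applied. Symbols were those of the platform table, in which 19064 probe sets carry 1, 1043 carry several and 2108 carry none, and all 59 symbols were current in RefSeq. Bf minus DMSO was tested without a block, since no pairing is described in the methods, and replicate numbers with treatment as a term. The numbers pair the samples by the values, since the Bf and DMSO arrays of a number deviated together (r of 0.725, 0.783 and 0.880 across probe sets). No label ties a number to a shared day. P-values of Bf minus DMSO without the block measure the spread between the cultures of a treatment. Those with the block, and those of replicate numbers, measure how unevenly the Bf and DMSO arrays differed across the numbers. The p-values of replicate numbers thus do not measure the spread between cultures of a number, which holds 1 array of each treatment. Scripts were tested on simulated data.

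Genes given by array were the 4 members with the smallest p in each direction of Bf minus DMSO, the 8 with the smallest F test p, 14 well-known genes, and a few added after their values were seen (CDT1, GMNN, CENPI, RFC5, FOS). Of the other pathway genes, the 2 with the smallest p in each direction were named. The members and lists were chosen with earlier results of these data known. Alternatives were quantile normalization, equal array medians, trended and robust variance, a level filter, the mean of a gene's probe sets, no treatment term, the block, SAM, other thresholds and leaving out arrays.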

Additional observations from a re-analysis of the deposited data

How the results depend on the processing

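No member passed for Bf 140 nM minus DMSO 0.6% under any alternative run, the replicate block (0 of 58 members) and unpaired SAM (0) included, and the block changed no call. Without both replicate 3 arrays, an alternative chosen after seeing the data, 0 passed as well. The median of mitotic members in that comparison, -0.01, lay between -0.20 (without Bf replicate 1) and 0.13 (without DMSO replicate 1) when single arrays were left out.

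For replicate 2 minus replicate 1, the count of mitotic members lower, 18, lay between 9 (without Bf replicate 2) and 23 with single arrays left out. The count of replication members lower, 1, was 2 with no treatment term, 0 with the mean of all probe sets, 2 without both replicate 3 arrays, and between 0 and 2 with single arrays left out. Their median, -0.05, was 0.0365 after quantile normalization, -0.0351 with equal array medians, -0.0487 with the mean of all probe sets, and between -0.15 (without DMSO replicate 1) and 0.0217 (without Bf replicate 1) with single arrays left out.

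Replication members higher in replicate 3 than in replicate 1, 10, were 6 with the mean of all probe sets. Those higher in replicate 3 than in replicate 2, 10, were 5 after quantile normalization and 6 with the mean of all probe sets. That mean turned round replicate 3 minus replicate 1 for RB1 (-0.35 in place of 0.72), CDK1 (-0.19 in place of 0.53) and TOP2A (-0.26 in place of 0.24), by adding their dimmer probe sets. The causes of the other changes were not tested. With 3 arrays a group, a Bf effect under 1.5-fold was bounded for 25 of 58 members without the block.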

Other observations

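The genes lower in replicate 2 than in replicate 1 were mostly outside the cell cycle lists used here. Of 430 such genes in limma, 20 were members, 24 were other genes of the pathway listed here and 386 were in neither list. Among the 50 lowest differences of all genes, 9 were members and 4 other genes of the pathway, with PLK1 6th and CDC20 10th from the lowest. The outside genes named next were chosen after their values were seen, from those with the lowest and highest differences. FOS, an immediate-early transcription factor, was 9.72, 8.28 and 7.81 in Bf replicates 1, 2 and 3, against 9.20, 8.34 and 7.48 in DMSO. EPAS1, a hypoxia-inducible factor, differed by -1.28 and DACH1, a developmental transcription factor, by -1.36. On the higher side stood HES1, a Notch target that represses differentiation genes, at 1.14, GREM1, a BMP antagonist, at 1.33, and ID4, an inhibitor of helix-loop-helix factors, at 1.07.

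RFC5 stood out among the clamp loader genes. It was 9.94, 11.10 and 11.94 in Bf replicates 1, 2 and 3, against 9.75, 10.57 and 12.36 in DMSO. Replicate 3 minus replicate 1 was 2.30 in limma, the highest of all 11963 genes, while RFC2, RFC3 and RFC4 had -0.63, 0.40 and 0.37. The RFC5 difference was not examined further.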
